A study of Rattus norvegicus with 12 samples.

Results

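The let-7 family and miR-98 were represented by 9 of the 375 miRNA assays measured in RNA of rat parotid acinar cells. Members were taken by name as the guide strands let-7a, let-7b, let-7c, let-7d, let-7e, let-7f, let-7g, let-7i and miR-98. All 9 assays carried a mouse name, and none of them had a second assay with a rat name. The animals were albino Sprague Dawley rats with no treatment, and acinar cells of the parotid, the serous salivary gland in front of the ear, were cut out of tissue sections by laser capture microdissection. There were 12 samples, 3 at each of embryonic day 20 (E20) and postnatal days 5 (P5), 15 (P15) and 25 (P25), and the methods state that the samples of an age came from separate litters. The design asked how miRNA levels change while acinar cells mature from shortly before birth to P25, and the family was examined for which members change and whether they change alike.

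miRNAs are short RNAs that guide an Argonaute protein to messenger RNAs, which are then translated less or degraded. Pairing starts at the seed, bases 2 to 8 from the 5′ end, so that miRNAs with one seed are grouped as a family with overlapping targets. let-7 was found in worms as a regulator of developmental timing, and in mammals its members generally rise as tissues differentiate. LIN28 proteins of early embryonic cells block the processing of most let-7 precursors, and targets of the family include Hmga2, Igf2bp1, Lin28 and Ras transcripts. miR-98 is a family member under another name.

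The mature rat sequences from RefSeq are shown because the 9 members differ in so few bases that assays for single members have little to tell them apart by. Capitals mark the seed, which read GAGGUAG in all 9.
let-7a: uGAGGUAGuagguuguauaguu
let-7b: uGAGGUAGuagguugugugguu
let-7c: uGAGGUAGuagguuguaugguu
let-7d: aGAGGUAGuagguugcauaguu
let-7e: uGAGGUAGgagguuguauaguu
let-7f: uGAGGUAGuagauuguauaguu
let-7g: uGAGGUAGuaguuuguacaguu
let-7i: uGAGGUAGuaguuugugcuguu
miR-98: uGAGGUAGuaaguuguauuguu

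Of the 375 assays, 273 could be matched to a mature RefSeq sequence, and the 9 members were the ones among them with this seed. Differences from let-7a, counted from 1 at the 5′ end, are A19G in let-7c, A17G and A19G in let-7b, U9G in let-7e and G12A in let-7f. let-7d carries U1A and U16C, let-7g G12U and U18C, miR-98 G11A and A19U, and let-7i G12U, A17G, U18C and A19U. The members on which the comparisons below turn are repeated here with these differences from let-7a in capitals.
let-7b: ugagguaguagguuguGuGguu
let-7c: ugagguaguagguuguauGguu
let-7e: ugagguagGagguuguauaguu

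The 9 members come from 12 genes, since let-7a, let-7c and let-7f each have a pair of genes that give the same mature sequence. In the rat assembly GRCr8, let-7b (chr7:118684044-118684065, plus strand) and one let-7c copy (chr7:118683636-118683657, plus strand) lie side by side, with 320 bases between their hairpins. The other let-7c copy (chr11:29688127-29688148, plus strand) lies near miR-99a, and let-7e (chr1:67350243-67350264, plus strand) lies between miR-99b and miR-125a. The copies of let-7a and let-7f on chromosome 17 share a cluster with let-7d, and the other let-7f copy shares one with miR-98 on chromosome X. The other let-7a copy lies on chromosome 8, 6828 bases from miR-100. let-7g on chromosome 8 and let-7i on chromosome 7 have no other member beside them. An assay of a mature miRNA reads all its genes together.

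Each well gave a threshold cycle (CT), the cycle of the PCR in which fluorescence passes a set level, so that a CT lower by 1 means about 2 times as much template. Values below are the array median, which is the median CT over all detected miRNAs, minus the CT of the member, a log2 scale on which higher means more. Arrays had between 179 and 307 miRNAs with a CT, and array medians were between 31.3 and 34.8 cycles. Numbers were lower at P25 (202 to 223) than at E20 (282 to 306), so the array median does not rest on one fixed set of miRNAs. P15 replicate 1 stood apart with the lowest number, 179, and means that lean on it are also given without it. Summed on the linear scale, markers of glandular epithelium such as miR-375 and miR-200 were at 52.2 to 163 times the array median at E20 and at 515 to 877 at P25, where all 9 assays of the list were detected in every sample. Markers of striated muscle went from 20.5 to 74.8 at E20 to 1.12 to 3.68 at P25, with miR-206 and the rat-named miR-1 assay undetected there, and the 3 mesenchyme markers from 28.1 to 47.5 to 4.92 to 6.40, all still detected. Smooth muscle and pericyte markers were at 27.3 to 34.6 at E20 and 86.2 to 163 at P25. The part of these other cell types in the changes below was not tested, and in such samples fewer cells of a type and less RNA per cell cannot be told apart.

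All 9 members had a CT in all 12 samples, as did 120 of the 375 assays, so none of their values was imputed. The 8 let-7 members had CT values between 25.6 and 34.7, while miR-98 was late on every array, between 34.1 and 38.0. let-7b was the earliest member on 11 of the 12 arrays. The exception was E20 replicate 3, where let-7g was the earliest, and miR-98 was the latest member on all 12. The residual SD within ages had a median of 0.774 cycles over the members against 1.11 over the 192 tested assays. Tested assays were those with a CT in 2 or more of the 3 replicates of each age. Some of them held imputed values, unlike the members, so these medians are not over like sets.

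At E20 the 8 let-7 members lay close together, from 4.43 ± 0.65 (SD, n = 3) for let-7b through 3.88 ± 0.62 for let-7g and 3.36 ± 0.58 for let-7f down to 1.85 ± 1.01 for let-7i. The ranges of all neighbours in that order overlapped, except between let-7i and miR-98 at -2.93 ± 0.98. By P25 the order was led by let-7b at 7.45 ± 0.84, followed by let-7g at 5.53 ± 0.71 and let-7c at 5.31 ± 1.00. let-7b no longer overlapped with its next neighbour at P5, P15 or P25, whereas the positions from let-7g or let-7c down to the last let-7 member overlapped step by step at P15 and P25. let-7e moved from rank 5 to rank 8 and let-7c from rank 4 to rank 3. Against all detected assays of an array, let-7b ranked between 10 and 25 at E20 and between 1 and 3 at P25. Different assays amplify with different efficiency, so orders between members are orders of signal.

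**Figure D1:**
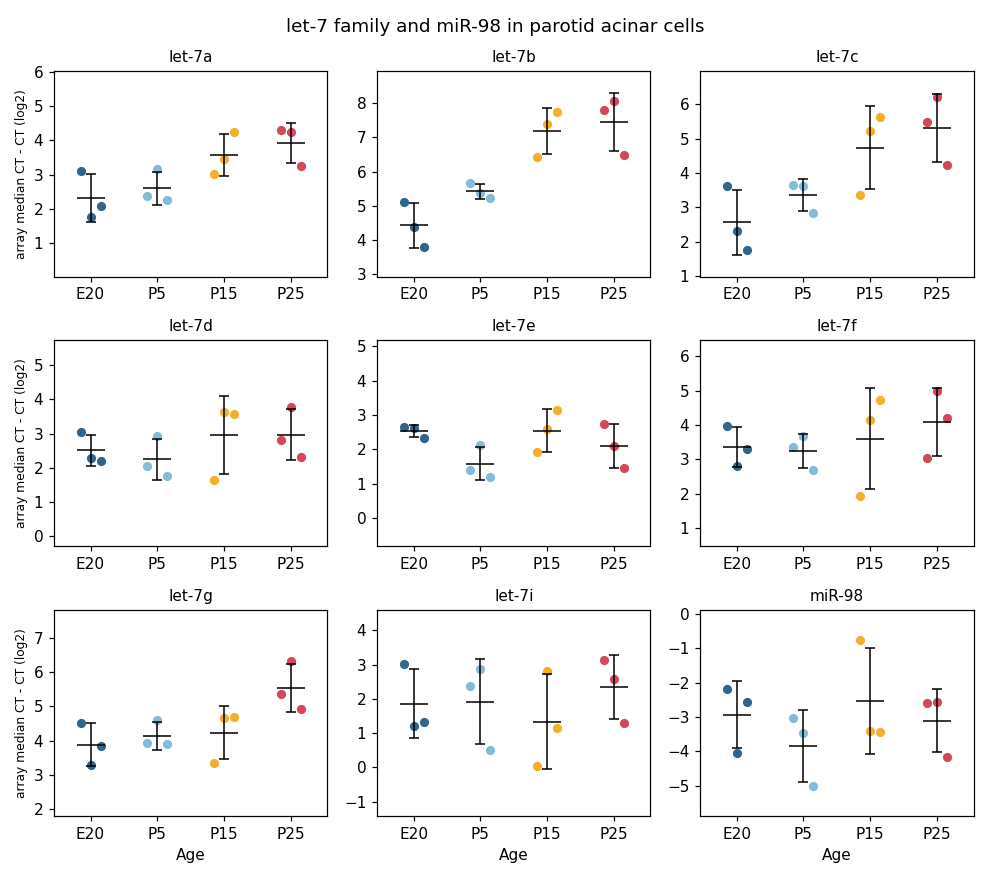
Each panel shows 1 member, with age on the x axis and the array median CT minus the CT (log2 scale) on the y axis. Points are the 3 samples of an age from replicate 1 to 3, the horizontal bar is their mean and the error bar the SD, and all panels span the same number of cycles. let-7b and let-7c climb from E20 to P25, while let-7d, let-7e, let-7f, let-7i and miR-98 overlap between these 2 ages.

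let-7b and let-7c rose from E20 to P25, and no other member passed the test in either direction. let-7b read 5.10, 4.38 and 3.81 in the E20 samples, 5.66, 5.37 and 5.24 at P5, 6.43, 7.38 and 7.73 at P15, and 7.79, 8.07 and 6.49 at P25. All samples from P5 on were above all E20 samples, and all P15 and P25 samples were above all P5 samples. The change to P25 was 8.12-fold (95% interval 2.79 to 23.6), 3.02 on the log2 scale (SE 0.72, limma with Benjamini-Hochberg adjustment over the 192 tested assays, adjusted p = 0.0124).

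let-7c read 3.61, 2.31 and 1.75 at E20, 3.64, 3.62 and 2.83 at P5, 3.36, 5.23 and 5.62 at P15, and 5.49, 6.21 and 4.23 at P25. Its E20 and P25 samples did not overlap, while P5 overlapped with both E20 and P15. The low P15 value came from replicate 1, and the P15 mean was 4.74 with it and 5.43 without it. The change to P25 was 6.75-fold (95% interval 1.98 to 23.0), with a limma adjusted p of 0.0388.

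The 2 members that passed stand against 4.17% of all tested assays called higher at P25, and the 0 members called lower against 7.81%. The median change over the members was 0.72 on the log2 scale against 0.15 over all tested assays, and 7 of 9 members had a positive change. Both calls were lost when E20 replicate 2, E20 replicate 3, P25 replicate 1 or P25 replicate 2 was left out, with limma adjusted p between 0.0506 and 0.0665 for let-7b and between 0.105 and 0.145 for let-7c, and that of let-7c also without P5 replicate 3 (adjusted p = 0.0514). The changes in the fits with 1 sample left out were between 2.71 and 3.50 on the log2 scale for let-7b and between 2.30 and 3.30 for let-7c. Neither was called with small nuclear RNAs or no array reference, with a CT above 35 taken as not detected, or with the per-miRNA tests of the methods. With no array reference the changes were 1.30 for let-7b and 1.03 for let-7c, and with small nuclear RNAs 3.84 and 3.57. The small nuclear RNAs were an unsteady reference, with an SE of 2.98 for both changes. U6, which is among them, had CT values from 24.0 to 33.7 and none in P15 replicate 3 and P25 replicate 3.

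let-7a and let-7g had intermediate values that did not pass. let-7a read 3.12, 1.77 and 2.08 at E20 and 4.29, 4.23 and 3.24 at P25, so the groups did not overlap, by a small margin. Its change was 1.60 on the log2 scale (SE 0.72, limma adjusted p = 0.139). let-7g read 4.53, 3.29 and 3.83 at E20 and 5.35, 6.32 and 4.93 at P25, again without overlap, with a change of 1.65 (SE 0.73) and the same adjusted p of 0.139. Both were called, higher at P25, when the array reference was the median over the miRNAs found on every array or the median after imputation.

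The other 5 members overlapped between E20 and P25. The changes were 0.72 (95% interval -1.07 to 2.51) for let-7f, 0.48 (-1.48 to 2.44) for let-7i and 0.46 (-1.18 to 2.10) for let-7d on the log2 scale. let-7e read 2.64, 2.61 and 2.32 at E20 and 2.75, 2.11 and 1.46 at P25, a change of -0.42 (-1.89 to 1.05). miR-98 read -2.19, -4.04 and -2.57 at E20 and -2.58, -2.57 and -4.16 at P25, a change of -0.17 (-2.12 to 1.77). Each of these intervals reaches past a 2-fold change both ways. In all, 4 members were higher at P25 without overlap, where 21.8% of the 156 assays measured in all 6 samples were, and 0 were lower, where 17.3% of those assays were.

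**Figure D2:**
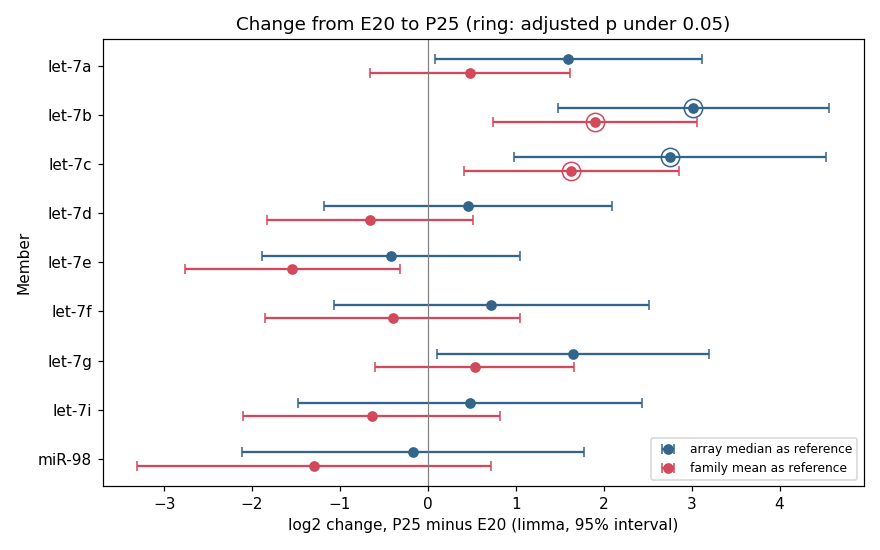
Log2 change from E20 to P25 of each member (x axis) with its 95% interval from limma, with the array median as reference in blue and the mean CT of the 9 members in red. Rings mark an adjusted p under 0.05, which let-7b and let-7c reached with both references. The red points lie to the left of the blue ones by the same amount for every member. That amount is the rise of the mean of the 9 members against the array median.

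Over the 4 ages, the moderated F test called let-7b (limma adjusted p = 0.0332) and no other member, with let-7c at 0.144, while 7.81% of all tested assays were called. Without P15 replicate 1 the F test called 2 members, and without any of the 3 E20 samples, P5 replicate 3, P15 replicate 2, P25 replicate 1 or P25 replicate 2 it called 0. The linear trend over age in days called the same pair as the first-to-last comparison. let-7b rose by 1.18 per 10 days (SE 0.25, limma adjusted p = 0.00642) and let-7c by 1.05 (SE 0.29, adjusted p = 0.0230), on the log2 scale. Rising trends were called in 4.69% of all tested assays and falling ones in 9.38%, and 0 members had a falling trend. let-7a (0.64 per 10 days, adjusted p = 0.0962) and let-7g (0.57, adjusted p = 0.137) did not pass, and let-7e was at -0.01. The trend count was 1 without E20 replicate 2, E20 replicate 3, P25 replicate 1 or P25 replicate 2.

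Between neighbouring ages 0 members were called by limma. From E20 to P5 no member had an unadjusted p under 0.05, and 0% of all tested assays were called after adjustment. let-7b differed by 0.99 (95% interval -0.55 to 2.54) and let-7e by -0.95 (-2.42 to 0.52) over that step. From P5 to P15, where again 0% of assays were called, the change of let-7b was 1.76 (limma adjusted p = 0.595), and this was the 1 member with an unadjusted p under 0.05, as had 12 of the 192 tested assays. From P15 to P25, with 0% called, let-7b changed by 0.27 and let-7g by 1.30, and no member had an unadjusted p under 0.05.

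Between ages further apart, E20 to P15 (0% of assays called) gave let-7b 2.75 (limma adjusted p = 0.0639) and let-7c 2.18 (adjusted p = 0.178), the 2 of 9 members with an unadjusted p under 0.05, a share near that of all tested assays (40 of 192). Without P15 replicate 1 this comparison called 1 member, as it did with the replicate number as a block. P5 to P25 gave let-7b 2.03 (limma adjusted p = 0.212) and let-7c 1.95 (adjusted p = 0.245), again the 2 of 9 members with an unadjusted p under 0.05, which 33 of the 192 tested assays had. After adjustment 0 members were called, where 1.56% of assays were called higher and 1.56% lower. These pairs share samples with each other.

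The members were next compared with each other on the same array, which needs no reference outside the family. Each CT was subtracted from the mean CT of the 9 members, so that a shift common to all of them drops out and a member is described by its place within the family. let-7b read 2.12, 2.53 and 1.80 above the family mean at E20, 3.24, 2.61 and 3.53 at P5, 4.10, 3.99 and 4.24 at P15, and 4.22, 4.10 and 3.82 at P25. The P5 samples all lay between those of E20 and those of P15, and P15 and P25 overlapped. With this reference the spread at P15 was small, and replicate 1 lay between the other P15 samples. The change from E20 to P25 was 1.90 on the log2 scale (SE 0.54, limma adjusted p = 0.0209).

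let-7c read 0.63, 0.46 and -0.25 against the family mean at E20, 1.22, 0.86 and 1.12 at P5, 1.03, 1.84 and 2.13 at P15, and 1.93, 2.24 and 1.56 at P25. Every sample after birth was above every E20 sample. Its change was 1.63 (SE 0.56, limma adjusted p = 0.0487). The unadjusted limma p of let-7c was 0.0129 here and 0.00464 with the array median as reference. The adjusted value also depends on how many other assays are called with the family mean as reference. let-7e went the other way, from -0.34, 0.76 and 0.32 at E20 to -0.81, -1.86 and -1.21 at P25, without overlap. At P5 it was at -1.01, -0.64 and -0.51 and at P15 at -0.42, -0.81 and -0.35, all below the E20 samples, the nearest by a small margin. Its change of -1.54 (SE 0.57) did not pass (limma adjusted p = 0.0612).

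Of the other members, let-7a changed by 0.48, let-7g by 0.53, let-7f by -0.40, let-7i by -0.64, let-7d by -0.66 and miR-98 by -1.29 against the family mean, with limma adjusted p between 0.370 and 0.735. Without overlap between E20 and P25, 3 members were higher (let-7a, let-7b and let-7c) and 3 lower (let-7d, let-7e and miR-98). Places within the family are tied to each other, so some members must read lower where others read higher. Against the array median, let-7d changed by 0.46, let-7e by -0.42 and miR-98 by -0.17, all with overlap. The same reference applied to all assays gave 6.41% higher and 36.5% lower without overlap, and calls in 2.08% higher and 24.5% lower. Against the array median, the mean of the members was at 1.85 to 2.98 at E20 and at 2.67 to 3.97 at P25. A higher reference at P25 lowers the change of every assay by the same amount. The 2 calls became 0 without E20 replicate 1, E20 replicate 3, P25 replicate 1 or P25 replicate 2, and 1 without E20 replicate 2, any 1 of the P5 samples, P15 replicate 2 or P15 replicate 3.

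miR-98 has the latest wells and weighs as much as any other member in this mean. With the mean of the 8 let-7 members in its place, a setting added after the values were seen, let-7e fell by 1.70 and passed (limma adjusted p = 0.0327), and let-7b (1.74) and let-7c (1.47) were called as well. The same values of let-7e came with a CT above 37 or above 35 taken as not detected, under which miR-98 leaves the mean (limma adjusted p = 0.0231 and 0.0227). With let-7a alone as reference, also added afterwards, let-7e fell by 2.02 (limma adjusted p = 0.0194), while let-7b (1.42, adjusted p = 0.0879) and let-7c (1.16, adjusted p = 0.204) did not pass.

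**Figure D3:**
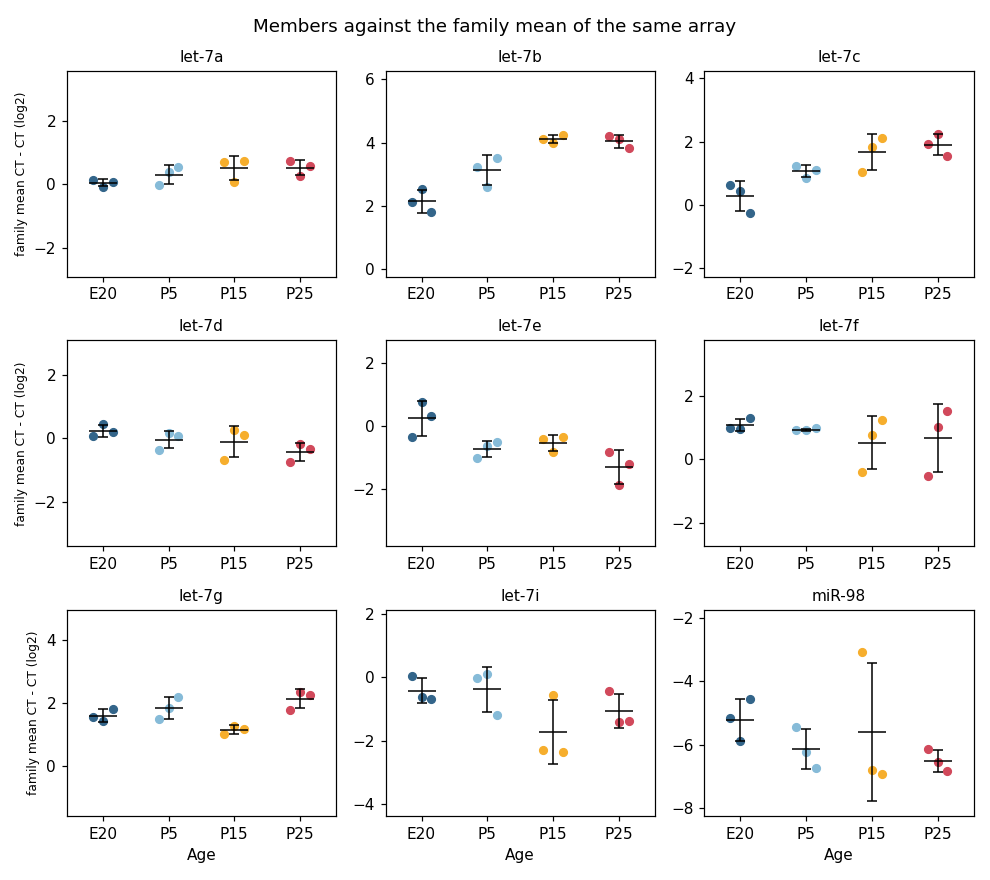
Each panel shows 1 member, with age on the x axis and the mean CT of the 9 members minus the CT of that member (log2 scale) on the y axis, all panels spanning the same number of cycles. Points are samples from replicate 1 to 3, with mean and SD. let-7b and let-7c lie higher at P25 than at E20, and let-7e lies lower without passing the test (adjusted p = 0.0612). The single high miR-98 point at P15 is replicate 1.

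If each cycle doubles the template and all assays amplify alike, the signal of the family can be divided into shares. let-7b held 29.5% ± 5.46 (SD, n = 3) of the summed signal at E20, 43.7% ± 7.63 at P5, 62.1% ± 5.01 at P15 and 55.5% ± 5.71 at P25. Its lowest share at P25, 50.7%, was above its highest at E20, 35.1%. let-7g, the next member at E20, held 20.3% ± 4.07 there and 14.9% ± 3.04 at P25, with overlapping samples. let-7c went from 8.21% ± 2.33 to 12.7% ± 2.17, and its samples at P25 (10.6% to 14.9%) lay above those at E20 (5.81% to 10.5%) by a small margin.

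let-7e held 8.09% ± 2.51 at E20 and 1.43% ± 0.518 at P25, and let-7d 7.72% ± 0.606 and 2.51% ± 0.476. let-7a held 6.83% and 4.86%, let-7f 14.1% and 6.39%, and let-7i 5.05% and 1.68%, while miR-98 held 0.194% and 0.0374%. The P25 samples of these 6 members all lay below their E20 samples, so that let-7g was the one member whose shares overlapped between these ages. A share is tied to the others, so the shares of the other members become smaller where that of let-7b grows. With an assumed 1.9 times more template per cycle, let-7b went from 28.0% at E20 to 52.1% at P25.

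**Figure D4:**
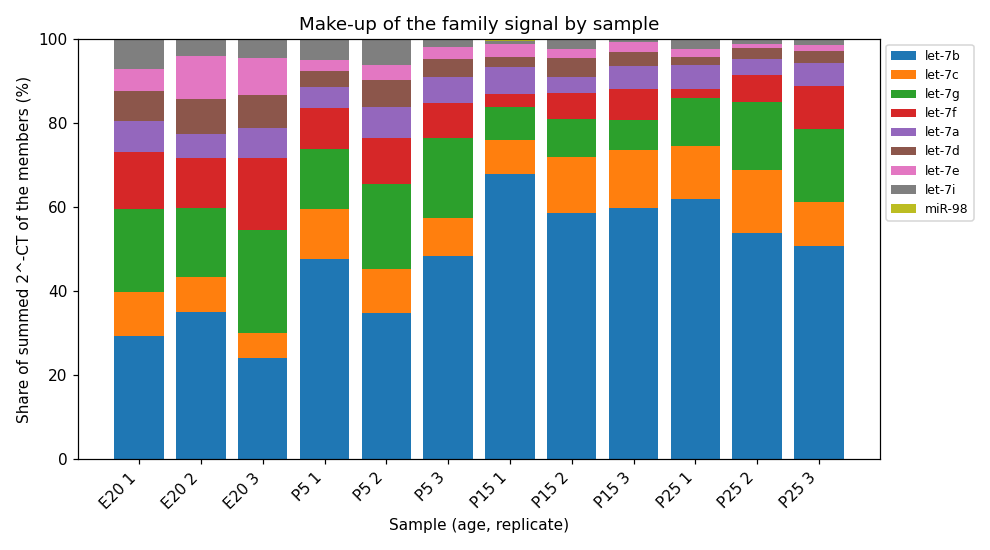
Stacked bars for the 12 samples (x axis) give each member's percentage of the summed signal of the 9 members (y axis, 2 times more template per cycle assumed). The let-7b segment is between 24.2% and 35.1% at E20 and between 50.7% and 61.8% at P25, and the miR-98 segment is too thin to see except in P15 replicate 1.

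How alike the members' profiles were was measured for each of the 36 pairs by the root mean square difference over the 12 samples, after each member was centred on its own mean. let-7b and let-7c were the most alike pair, at 0.371 cycles, against a median of 0.957 over the pairs. let-7b exceeded let-7c by 1.87 ± 0.33 cycles at E20, 2.06 ± 0.33 at P5, 2.44 ± 0.54 at P15 and 2.14 ± 0.24 at P25. The E20 and P25 samples overlapped in this difference. The pair is 1 base apart, at the A17G change shown above, and shares the cluster on chromosome 7. How far either assay also reads the other miRNA was not tested.

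The other pairs at 1 base apart were let-7a with let-7c (0.632 cycles), let-7f (0.768) and let-7e (0.782). let-7d and let-7f, 3 bases apart and from one cluster on chromosome 17, were at 0.455, and let-7a and let-7g, 2 bases apart and on different chromosomes, at 0.497. let-7f and miR-98, from the cluster on the X chromosome, were at 1.47 and at 0.888 without P15 replicate 1. The pair least alike was let-7c and miR-98, at 1.62. In all, the difference between the 2 members of a pair did not overlap between E20 and P25 in 22 of the 36 pairs. These pairs share members and are not independent. The share among pairs of all tested assays was not counted, so the number describes these pairs and does not set the family apart.

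The steepest shift between 2 members on one array was between let-7b and let-7e. let-7b exceeded let-7e by 1.90 ± 0.50 cycles at E20, 3.85 ± 0.52 at P5, 4.64 ± 0.15 at P15 and 5.34 ± 0.53 at P25. The highest E20 difference, 2.45, was below the lowest at P5, 3.26. let-7c went from 0.03 ± 0.82 above let-7e to 3.21 ± 0.78. let-7a, which differs from let-7e at 1 base (U9G), went from 0.20 ± 0.66 below it at E20 to 1.03 ± 0.04 above it at P5, 1.03 ± 0.13 at P15 and 1.81 ± 0.29 at P25, again without overlap between E20 and any later age.

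**Figure D5:**
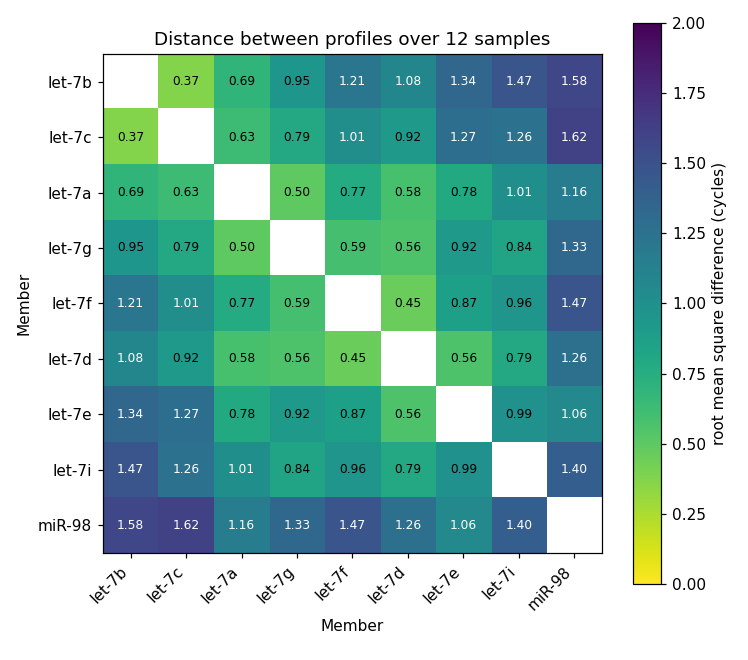
Root mean square difference in cycles between the centred profiles of each pair of members over the 12 samples, with members on both axes and light colours for similar profiles. let-7b with let-7c has the lowest value, 0.371, and the row of miR-98 holds the highest, with 1.62 against let-7c.

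P15 replicate 1 was the lowest P15 sample for all 8 let-7 members and the highest for miR-98. miR-98 read -0.75 in that sample against -3.42 and -3.43 in the others, and its P15 mean was -2.53 with the sample and -3.42 without it. let-7f went the other way, at 1.93 against 4.15 and 4.73, with means of 3.60 and 4.44. let-7d read 1.65 against 3.64 and 3.58, with means of 2.96 and 3.61. Without the sample, the P15 mean of let-7i (0.05, 2.82 and 1.14) went from 1.34 to 1.98, that of let-7g from 4.23 to 4.68 and that of let-7b from 7.18 to 7.56, while let-7c is given above. The P15 means of let-7e and let-7a were 2.54 and 3.58 with it and 2.86 and 3.85 without it. The array had the fewest detected miRNAs, and the part of its low signal in these values was not tested.

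miRNAs encoded beside family members were examined from a fixed list, as neighbours can be cut from one primary transcript. The genes of miR-125b on this list lie farther off. They are 44366 bases from the let-7c copy on chromosome 11 and 44737 bases from the let-7a copy on chromosome 8. Of the 5 neighbours tested, 0 were called between E20 and P25 by limma, where 4.17% of all tested assays were called higher and 7.81% lower. miR-99a, near let-7c on chromosome 11 at 639 bases, read 3.65, 3.45 and 3.10 at E20 and 4.80, 5.14 and 4.92 at P25. Its samples did not overlap, and its change of 1.55 (SE 0.76) had an adjusted p of 0.172. miR-99b, 95 bases from let-7e, read 3.29, 3.22 and 3.37 at E20 and 2.62, 1.21 and 1.27 at P25, also without overlap, with a change of -1.59 (SE 0.80, limma adjusted p = 0.179). Of the 156 assays measured in all 6 samples, 21.8% were higher and 17.3% lower at P25 without overlap.

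On the same array let-7e was below miR-99b by 0.64, 0.61 and 1.04 cycles at E20 and above it by 0.13, 0.89 and 0.19 at P25. The E20 and P25 samples did not overlap in this difference. let-7c minus miR-99a was -0.04, -1.13 and -1.35 at E20 and 0.70, 1.07 and -0.69 at P25, with overlap. miR-125a-5p (-0.50), miR-125b-5p (0.31) and miR-100 (-0.83) had changes with limma adjusted p between 0.658 and 0.820, and miR-100 lacked a CT in P15 replicate 1, where its value was imputed. The passenger strand of let-7a, the strand of the hairpin that is mostly discarded, had a CT in 10 of 12 samples and a change of 1.99 (SE 0.76, limma adjusted p = 0.0950) with imputed values in the other samples. The guide strand exceeded it by 5.27 cycles at E20 and 4.87 at P25, with overlapping samples.

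Among the 111 assays outside the family with a CT in all 12 samples, the profiles most like the mean profile of the members were those of miR-99a (0.474 cycles), the rat-named miR-200b (0.563), miR-181a (0.571), miR-30a (0.611) and miR-26b (0.635). The median over these 111 assays was 1.16. Of the members themselves, let-7a (0.296), let-7d (0.359) and let-7g (0.412) were nearer to the mean profile than any outside assay, as they enter it. let-7f (0.602) ranked among the outside assays named. Farther from the mean profile than all outside assays named were let-7e (0.651), let-7c (0.716), let-7i (0.797), let-7b (0.841) and miR-98 (1.10).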

How the data were processed

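miRNA was measured by qRT-PCR in 12 samples grouped by the age and replicate in their labels. The authors extracted total RNA from captured cells, used a panel of Exiqon assays (Mouse&Rat panel I) and deposited raw CT values, a score on a log scale without normalization, imputation or pooling. The members, lists and comparisons were chosen with earlier results of these data known. Assays with a CT under 40 in 2 or more of the 3 replicates of each age were kept (192 of 375), set against the array median, and missing values imputed from 10 nearest neighbors. limma 3.58.1 (R 4.3.3) fitted 4 age means over 12 samples, with Benjamini-Hochberg adjustment over all 192 and a threshold of 0.05. The trend used age in days from birth (-2, 5, 15 and 25). A second fit took the mean CT of the 9 members as reference. Tables and figures used Python 3.11.15, pandas 2.3.3 and matplotlib 3.10.9.

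All 9 members are named, with the 5 outside assays nearest their mean profile, 5 transcript neighbours and the passenger strands. Epithelial and other cell type markers were described by summed level; leukocyte markers were at 3.96 to 8.03 at E20 and 3.14 to 9.44 at P25, erythrocyte at 1.85 to 6.48 and 0 to 1.91, nerve at 1.13 to 28.6 and 0.935 to 13.7, and miR-126-3p of endothelium at 5.91 to 15.3 and 6.52 to 29.4. Deviations of same-numbered samples correlated above 0.1 over 120 assays in 9 of 9 pairs among P5, P15 and P25 (0.126 to 0.563). With E20, 1 of 9 pairs did (-0.234 to 0.123). This hint of pairing among the postnatal ages rests on the values alone, and some of the correlations were weak. Replicate 1 had the fewest detected miRNAs at P5 (224), P15 (179) and P25 (202). The part of low signal in these correlations was not tested. All values printed come from the fit without a block unless the block is named, and with it 0 members were called between postnatal ages, as without it. In 20 simulated tables of 192 assays, 40 assays were made to differ by 4 cycles between E20 and P25. Of the changed assays 84.2% were called, and 3.84% of the calls were false. The simulated noise was independent between assays, without missing wells or shifts shared by an array. No member changed by as much as 4 cycles in the main fit, so these shares do not give the power for the changes reported here.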

Additional observations from a re-analysis of the deposited data

How the results depend on the processing

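The number of members called depended on the array reference. With the median over miRNAs found on every array, the F test called 2 members, E20 to P25 4, the trend 4, E20 to P15 1 and P5 to P25 1. With the array median taken after imputation these counts were 4, 4, 4, 2 and 1, and with the mean CT of the miRNAs found on every array the F test called 2, the trend 3 and E20 to P15 1. With small nuclear RNAs or no reference, the F test, E20 to P25 and the trend called 0. These references moved the median change of all tested assays from 0.15 to 0.38, 0.88, -0.03, 0.96 and -1.58, in that order. With CT above 35 as not detected, the counts were 0, 0 and 1, with missing values at CT 40 they were 0, 1 and 1, and with CT above 37 as not detected the F test called 0. E20 to P25 called 1 member among assays detected in all 12 samples, and 0 with the per-miRNA tests of the methods, whose trend called 3. With 1 sample left out, the counts were 0 to 2 for the F test, 0 to 2 for E20 to P25, 1 to 2 for the trend and 0 to 1 for E20 to P15. With the replicate number as a block, E20 to P15 called 1 member, and the block changed no other call.

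Against the family mean, 1 member was called in place of 2 with detection at 1 or more ages, with missing values left out or at CT 40, with the per-miRNA tests, with only the compared ages in the fit, and (let-7e, lower) with let-7a as reference. The count was 3, with let-7e lower, when a CT above 37 or above 35 was not detected and with the mean without miR-98. The range with 1 sample left out was 0 to 2. The change of let-7b and of let-7c kept its sign in all alternatives with both references, though not its size. Against the array it ran from 1.30 (no reference) to 3.84 (small nuclear RNAs) for let-7b and from 1.03 to 3.57 for let-7c.

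Changes of members that were not called turned sign between E20 and P25 in some settings. With CT above 35 as not detected, let-7i was at -0.25, let-7f at -0.013 and let-7d at -0.27. With no reference, let-7i was at -1.24, let-7g at -0.071, let-7f at -1.0025, let-7d at -1.26 and let-7a at -0.12. let-7e and miR-98 were at 0.40 and 0.64 with small nuclear RNAs and at 0.31 and 0.56 with the median after imputation, and miR-98 was at 0.061 with the median over miRNAs found on every array. Over the samples left out in turn, miR-98 ran from -0.73 to 0.36, turning positive at 0.20 without E20 replicate 1, 0.0097 without E20 replicate 3 and 0.36 without P25 replicate 3. Against the family mean, let-7f ran from -0.83 to 0.20, the latter without P25 replicate 1. The cause of these shifts was not tested. With 3 samples per age, changes of 1.60 (let-7a, residual SD 0.604 cycles) and 1.65 (let-7g, residual SD 0.640 cycles) were not called. The late wells of miR-98 limit what its values can show.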
